A study of Mus musculus with 18 samples.

Results

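The weakest activating signal in a peptide titration of mouse CD4+ T cells was compared with the naive state. The activated cells were CD4+ T cells of spleen and lymph node that carried the transgenic 5C.C7 T cell receptor (5CC7 in the series text), held for 4 days on P13.9 cells that carried the peptide pPCC at 0.01 µM, the lowest of 4 doses. They were set against naive CD4+ T cells of the same tissues, for which the labels name no receptor. The 5C.C7 receptor recognises a peptide of cytochrome c, and P13.9 is a fibroblast line used to present that peptide. The comparison rests on 6 of the 18 libraries of the series, 3 labelled 0.01 µM (A, B and C) and 3 labelled naive (1, 2 and 3 in the deposited table). Further groups of 3 were P13.9 cells alone and T cells activated at 0.1, 1.0 and 10 µM. All named genes were members, 15698 in the table, of which 7264 passed the filter on low values and were tested. No label says that the 3 samples of a group were from different animals or cultures. A p-value of the main fits reflects only the spread between the libraries fitted, those of the other doses included.

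A naive T cell is small and nearly silent in its metabolism. It recirculates through lymph nodes with the help of receptors such as CCR7 and S1PR1, under the control of transcription factors such as KLF2 and TCF-1. When its receptor binds peptide on a presenting cell, early response genes come on within hours, and over days the cell divides, rebuilds its metabolism and may take up a helper fate, T helper 1 under T-bet or T helper 2 under GATA3. The study varied the peptide dose to ask how signal strength bears on these fates.

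Messenger RNA was sequenced from its 3′ ends, and each gene value below is the deposited normalized value, a read count divided by the size factor of its library. Depth and purity differed between the groups, and both touch every result. Reads recovered from these values in named genes numbered 733009, 539188 and 382380 at 0.01 µM, against 27789, 53280 and 97757 in naive cells, all far under the depth that the labels give. One read was therefore worth a normalized value of 0.167 to 0.337 at 0.01 µM and 2.17 to 6.55 in naive cells. Replicates correlated at 0.948 to 0.975 over genes at 0.01 µM and at only 0.581 to 0.757 in naive cells. Features with no gene name took 3.61% to 4.31% of reads at 0.01 µM, against 12.4% to 15.6% in naive cells. Transcripts encoded by mitochondria took 3.71% to 3.88% of named reads at 0.01 µM, against 14.9% to 15.8% in naive cells and 4.29% to 4.54% in P13.9.

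Transcripts of the presenting cells were present at 0.01 µM. Set against P13.9 alone, the values of 9 fibroblast genes stood at a median of 28.5%, 36.5% and 46.6% of the P13.9 level in libraries A, B and C at 0.01 µM, against 5.29% to 8.33% in naive cells. By 74 genes with no read in any naive library the share was 20.2%, 25.6% and 25.3%. The mean of P13.9 is therefore given beside each gene. In a bulk library, fewer cells of a type and less RNA per cell cannot be told apart.

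Markers of the labelled cell type were present in both groups. The summed value of 8 T cell markers ran from 228 to 263 at 0.01 µM, against 236 to 290 in naive cells, and from 3.98 to 8.69 in P13.9. Cd4, the coreceptor, measured 14.6, 15.1 and 4.72 at 0.01 µM, against 0, 7.81 and 15.2 in naive cells, with 0.511 in P13.9. Cd3e, a chain of the receptor complex, measured 10.7, 9.74 and 8.77 at 0.01 µM, against 0, 15.6 and 12.99 in naive cells, with no read in P13.9. Naive 1 held no read of either, the groups overlapped for both, and without naive 3 Cd4 was called higher (1.93, adjusted p = 0.0334). The sum of 10 fibroblast markers was 140.0 to 207 at 0.01 µM, against 36.8 to 50.8 in naive cells and 590 to 677 in P13.9. A set of 7 myeloid markers summed to 30.2 to 36.9 at 0.01 µM, against 125 to 160.3 in naive cells and 95.9 to 124 in P13.9, where Cst3 supplied most of it. Both B cell markers in the table, Ighm and Cd74, summed to 6.72 to 11.7 at 0.01 µM, against 6.55, 50.8 and 19.5 in naive 1, 2 and 3. Cd8a had no read in any of these libraries, and 3 erythroid and platelet markers summed to 1.17 to 2.32 at 0.01 µM, against 0 to 39.0 in naive cells.

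**Figure D1:**
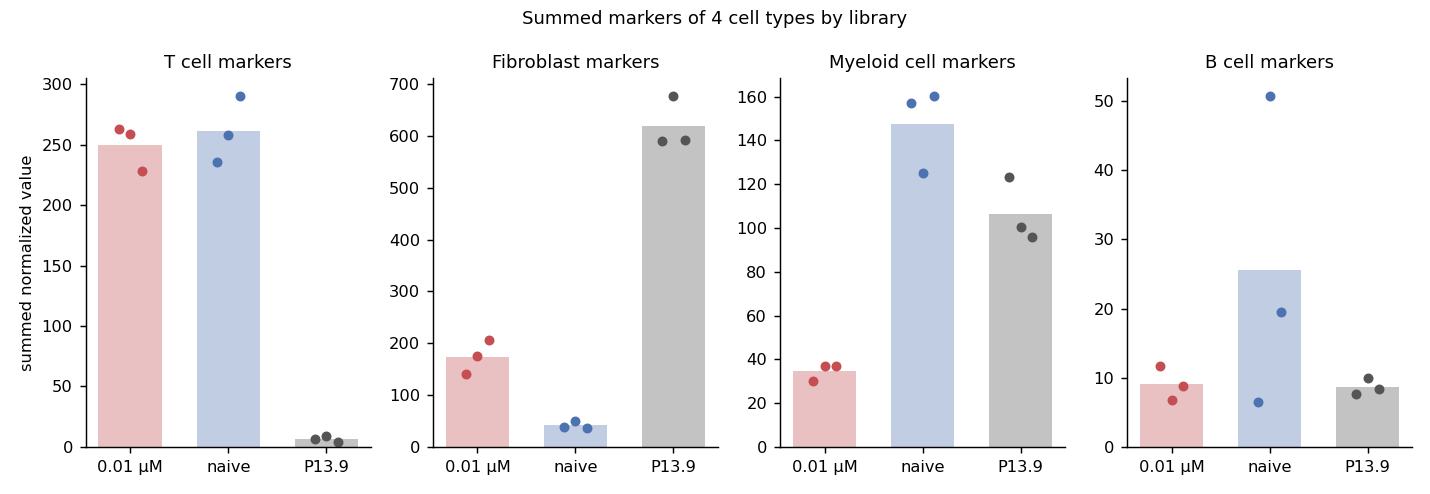
Summed normalized values of fixed markers of T cells, fibroblasts, myeloid cells and B cells in the 0.01 µM, naive and P13.9 libraries. Points are libraries and bars are means of 3. T cell markers sit between 228 and 290 in both T cell groups, fibroblast markers are higher at 0.01 µM than in naive cells, and myeloid markers are higher in naive cells.

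Many genes differed. Of 7264 genes tested, 1578 were called higher at 0.01 µM, which is 21.7%, and 2010 were called lower, which is 27.7%, at an adjusted p below 0.05. A log2 change here is the difference in log2(value + 1) from the limma fit of the 15 T cell libraries, given with its standard error (n = 3 in each group). That error draws on the spread within all groups of the fit, not within the 2 compared groups alone. With the 6 compared libraries fitted alone, 600 genes were called higher and 1609 lower. The median log2 change over all genes tested was 0.03. Without naive 2 or without naive 3 the genes called lower numbered 1215 and 1182. The groups did not overlap in 1283 of the genes called higher and in 1941 of those called lower, beside 3638 of all 7264 genes tested. The calls and the overlap come from the same values, so the one is no support for the other. The P13.9 mean lay above the naive mean in 1420 of the genes called higher, which is 90.0%. That share was 43.3% over all genes tested and 3.63% among those called lower. Naive cells had no read in 246 of the genes called higher and 1 to 3 reads in a further 641. Where a group held 3 reads or fewer, a ratio of reads, scaled by the size factors of the libraries, is given with its exact 95% interval, and where it held none the fold is bounded with a floor of 3 reads for the group. Such intervals and floors cover counting error only. The other scalings moved the median of all genes upward by 0.16 to 0.46 on the log2 scale, and higher calls made up 44.0% of all calls in the main fit, 58.0% with edgeR on recovered reads, 55.2% after quantile normalization and 63.9% with equal totals outside the mitochondrial genes.

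Early response genes were among the largest falls. Rgs2, a brake on G protein signalling, measured 0.502, 0.464 and 0.337 at 0.01 µM, against 78.6, 113 and 141 in naive cells, with 0 in P13.9 (log2 change -6.25 ± 0.34, adjusted p = 1.17e-09). Fos, a subunit of the AP-1 transcription factor, measured 0.168, 0.464 and 0 at 0.01 µM, against 45.9, 74.2 and 84.5 in naive cells, with 1.10 in P13.9. It rested on 3 reads at 0.01 µM and 65 in naive cells, a ratio of 0.00303, with exact bounds of 0.000610 and 0.00926 (adjusted p = 1.29e-09). All 3 libraries at 0.01 µM were near 0 for both genes and every naive library was high. The orphan nuclear receptor gene Nr4a1, induced within minutes of a receptor signal, measured 4.19, 2.78 and 4.72 at 0.01 µM, against 151, 144 and 113 in naive cells, with 1.39 in P13.9 (log2 change -4.82 ± 0.42, adjusted p = 2.05e-07). Its relative Nr4a3 measured 0.837, 1.16 and 0 at 0.01 µM, against 26.2, 54.7 and 62.8 in naive cells, with 1.22 in P13.9 (log2 change -4.86 ± 0.41, adjusted p = 1.30e-07). Nr4a2 measured 0.168, 0.232 and 0 at 0.01 µM, against 13.1, 70.3 and 56.3 in naive cells, with 1.32 in P13.9. Its 2 reads at 0.01 µM and 46 in naive cells gave a ratio of 0.00286, with exact bounds of 0.000336 and 0.0109 (adjusted p = 1.30e-07). Cd69, the early activation antigen that keeps T cells in lymphoid tissue, measured 7.54, 6.49 and 5.06 at 0.01 µM, against 72.1, 137 and 113 in naive cells, with 0 in P13.9 (log2 change -3.84 ± 0.33, adjusted p = 1.58e-07). Nr4a1 and Cd69 did not overlap between the groups, which for Nr4a1 the filter required. Lack of overlap was a condition of choice for Rgs2, Fos, Nr4a2 and Nr4a3. Each of these genes kept its call in every alternative in which it was tested. All but Cd69 missed the filter once any naive library was left out, so those fits did not test them.

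Genes of recirculation and quiescence fell as well. In a list of 36 genes of the naive and quiescent state, 34 were tested, 1 rose, 22 fell and 11 did not pass, with a median log2 change of -2.02 beside 0.03 over all genes. The member that rose was Igfbp4, an insulin-like growth factor binding protein, at 127, 122 and 105 at 0.01 µM, against 85.2, 35.1 and 19.5 in naive cells, with 1.48 in P13.9 (log2 change 1.57 ± 0.34, adjusted p = 0.00153). Klf2, which drives the receptors of recirculation, measured 2.35, 2.78 and 6.07 at 0.01 µM, against 78.6, 164 and 173 in naive cells, with 1.32 in P13.9 (log2 change -4.88 ± 0.39, adjusted p = 6.96e-08). S1pr1, the receptor by which T cells leave lymph nodes, measured 6.36, 3.94 and 6.07 at 0.01 µM, against 124, 125 and 134 in naive cells, with 0 in P13.9 (log2 change -4.34 ± 0.27, adjusted p = 5.02e-09). Ccr7, the receptor for entry into lymph nodes, measured 9.38, 8.35 and 9.78 at 0.01 µM, against 65.5, 58.6 and 102 in naive cells, with no read in P13.9 (log2 change -2.87 ± 0.26, adjusted p = 3.69e-07). For all 3 genes the lowest naive library stood above the highest library at 0.01 µM. Btg1, an anti-proliferative gene, measured 7.03, 2.78 and 4.05 at 0.01 µM, against 91.8, 137 and 126 in naive cells, with 7.70 in P13.9 (log2 change -4.45 ± 0.39, adjusted p = 2.41e-07). Btg2, of the same family, measured 12.4, 12.8 and 12.1 at 0.01 µM, against 91.8, 105 and 102 in naive cells, with 1.70 in P13.9 (log2 change -2.90 ± 0.21, adjusted p = 2.76e-08). Tsc22d3, a glucocorticoid-induced gene, measured 3.35, 2.09 and 2.02 at 0.01 µM, against 45.9, 97.6 and 106 in naive cells, with 3.53 in P13.9 (log2 change -4.53 ± 0.37, adjusted p = 1.03e-07).

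The transcription factor gene Tcf7 and the interleukin-7 receptor gene Il7r fell less far. Tcf7, which encodes TCF-1, measured 14.7, 12.98 and 11.8 at 0.01 µM, against 59.0, 50.8 and 73.6 in naive cells, with 0.957 in P13.9 (log2 change -2.12 ± 0.28, adjusted p = 1.95e-05). Il7r, needed for survival of naive cells, measured 8.54, 6.49 and 6.07 at 0.01 µM, against 19.7, 31.2 and 32.5 in naive cells, with no read in P13.9 (log2 change -1.82 ± 0.35, adjusted p = 0.000572). Lef1, a partner of TCF-1, measured 11.2, 8.58 and 12.8 at 0.01 µM, against 0, 23.4 and 30.3 in naive cells (log2 change 0.36 ± 0.88, adjusted p = 0.754), with 0.223 in P13.9, and without naive 1, which held no read of it, its log2 change was -1.24, adjusted p = 0.00293.

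**Figure D2:**
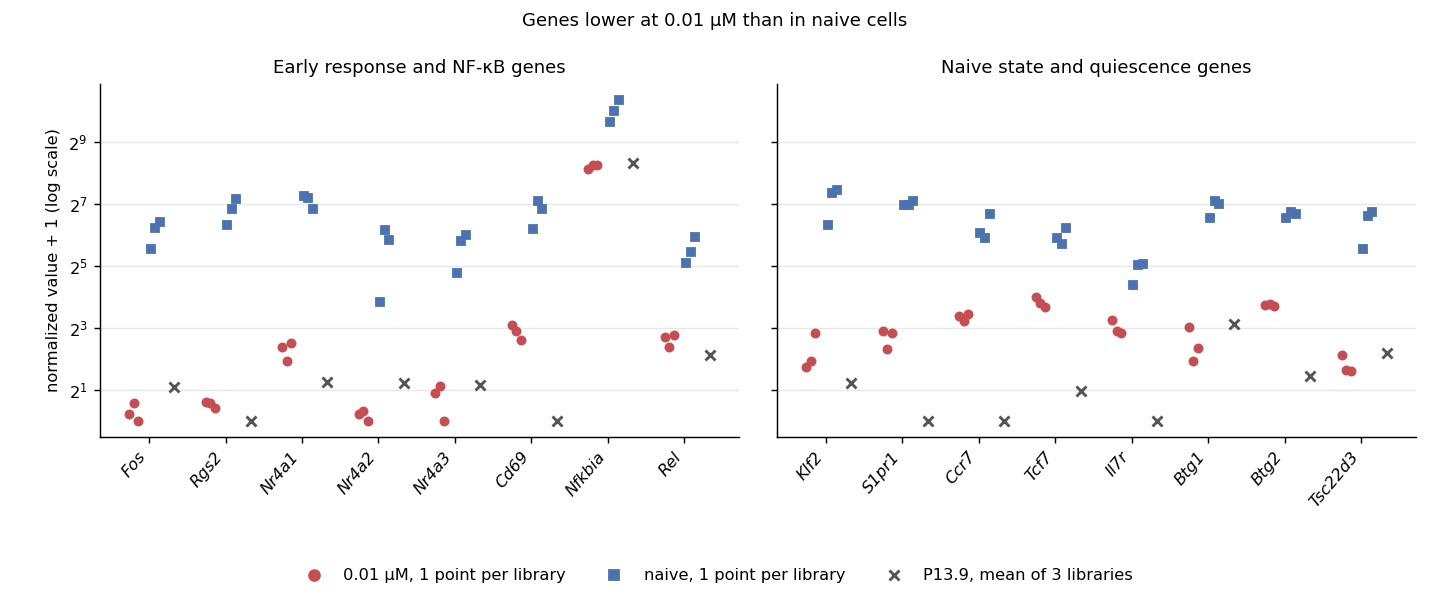
Normalized value + 1 on a log2 axis for 8 early response and NF-κB genes (left) and 8 genes of the naive state (right). Red circles are 0.01 µM libraries, blue squares are naive libraries and grey crosses are P13.9 means. In each of the 16 genes the 3 libraries at 0.01 µM lie below the 3 naive libraries. This was a condition of choice for Rgs2, Fos, Nr4a2 and Nr4a3, and the filter required it of Nr4a1.

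Activation genes moved in both directions, beside 21.7% called higher and 27.7% called lower over all genes. Of 39 genes on a T cell activation list 32 were tested, and 5 rose, 13 fell and 14 did not pass, with a median of -0.03. That balance turned with the scaling, to 10 higher and 10 lower with edgeR and 10 and 9 with equal totals. It was 10 and 9 without naive 1 and 5 and 5 without naive 2. Il2ra, the high-affinity chain of the interleukin-2 receptor, measured 86.8, 86.9 and 83.0 at 0.01 µM, against 19.7, 50.8 and 12.99 in naive cells, with 0.881 in P13.9. It rose against naive cells (log2 change 1.81 ± 0.32, adjusted p = 0.000269) and stood above P13.9 (log2 difference 5.57 ± 0.33, adjusted p = 6.88e-10). Tnfrsf4, the gene of the costimulatory receptor OX40, measured 30.6, 32.2 and 35.8 at 0.01 µM, against 13.1, 19.5 and 2.17 in naive cells, with 1.18 in P13.9 (log2 change 1.80 ± 0.47, adjusted p = 0.00567). Batf, an AP-1 partner needed for helper differentiation, measured 29.8, 26.0 and 30.0 at 0.01 µM, against 0, 11.7 and 6.50 in naive cells, with 0.626 in P13.9 (log2 change 2.69 ± 0.62, adjusted p = 0.00232). Naive 1 held no read of Batf, and the calls of Tnfrsf4 and Batf were lost in the fit of the 6 libraries alone (1.80, adjusted p = 0.076 and 2.69, adjusted p = 0.0556). Cd44, an adhesion receptor of activated T cells that fibroblasts also express, measured 94.1, 111 and 121 at 0.01 µM, against 52.4, 54.7 and 56.3 in naive cells, with 63.8 in P13.9 (log2 change 0.98 ± 0.18, adjusted p = 0.000347). Tfrc, the transferrin receptor, was the remaining member that rose, at 54.3, 52.9 and 65.1 at 0.01 µM, against 52.4, 23.4 and 26.0 in naive cells, with 9.72 in P13.9 (log2 change 0.83 ± 0.25, adjusted p = 0.0126), and it lost its call without naive 2, without naive 3 or without 0.01 µM C (0.73, adjusted p = 0.0526 for the last).

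Several receptors and factors linked to activation did not pass the test. Il2rb, the second interleukin-2 receptor chain, measured 80.6, 79.8 and 64.1 at 0.01 µM, against 85.2, 62.5 and 54.1 in naive cells (log2 change 0.17 ± 0.24, adjusted p = 0.579), with 2.33 in P13.9. It was called higher with edgeR (0.91, adjusted p = 0.00836). Irf4, whose level follows receptor signal strength, measured 12.1, 11.1 and 10.1 at 0.01 µM, against 6.55, 11.7 and 10.8 in naive cells (log2 change 0.21 ± 0.30, adjusted p = 0.579), with 0.773 in P13.9. The ranges of the groups overlapped for Irf4 and for Il2rb. Myc, the growth regulator, measured 3.85, 3.94 and 3.04 at 0.01 µM, against 0, 7.81 and 0 in naive cells, with 10.2 in P13.9, and 49 against 2 reads gave a ratio of 1.61, with exact bounds of 0.422 and 13.7 (adjusted p = 0.171). Without naive 2, which held both naive reads, Myc was called higher (2.20, adjusted p = 0.00178). Il2 itself was below the filter, at 1.00, 0.927 and 1.69 at 0.01 µM against 0, 23.4 and 0 in naive cells, with 2.06 in P13.9, all of the naive value in 1 library. Prdm1, the gene of Blimp-1, measured 4.02, 3.94 and 2.36 at 0.01 µM, against 6.55, 19.5 and 6.50 in naive cells, with 0.223 in P13.9. It was called lower (log2 change -1.27 ± 0.43, adjusted p = 0.0249), but 9 of 18 alternatives, edgeR among them (-0.89, adjusted p = 0.222), lost that call.

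The title of the series names GATA3 and T-bet. Gata3 measured 86.2, 74.9 and 83.7 at 0.01 µM, against 59.0, 35.1 and 43.3 in naive cells, with 2.21 in P13.9. Each library at 0.01 µM stood above each naive library, the gene was called higher (log2 change 0.85 ± 0.21, adjusted p = 0.00434) and it also stood above P13.9 (log2 difference 4.72 ± 0.24, adjusted p = 1.34e-10). Tbx21, the gene of T-bet, measured 1.17, 0.927 and 1.01 at 0.01 µM, from 14 reads, with 0.223 in P13.9. In naive cells it measured 1.31, 3.90 and 4.33, where the 1.31 of naive 1 is worth 0.2 of a read, the only value of the 284544 in the table that was not a whole read. Its change just missed the threshold (log2 change -0.95 ± 0.38, adjusted p = 0.0501). The log2 change was -1.33, adjusted p = 0.00866, with that value missing, -0.54, adjusted p = 0.404, with it as 0 reads, and -1.52, adjusted p = 0.00159, with it as 1 read. It was also called lower after quantile normalization (-1.59, adjusted p = 0.000681) and not with edgeR. Over the reads alone the ratio was 0.307, with exact bounds of 0.0856 and 1.66.

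On the T helper 2 list 2 genes besides Gata3 rose and none fell. Of 10 tested, 3 rose (Gata3, Epas1 and Ecm1) and 7 did not pass, with a median of 0.79, beside 21.7% higher, 27.7% lower and a median of 0.03 over all genes. With equal totals 6 rose, and in the fit of the 6 libraries 2. Epas1, a hypoxia-inducible factor gene, measured 22.3, 23.4 and 19.2 at 0.01 µM, against 19.7, 0 and 4.33 in naive cells, with no read in P13.9 (log2 change 2.23 ± 0.74, adjusted p = 0.0208), and lost its call without naive 2, without 0.01 µM A or B, and in the fit of the 6 libraries (2.23, adjusted p = 0.13). Ecm1, a secreted protein made by T helper 2 cells, measured 10.4, 9.51 and 11.8 at 0.01 µM against no read in naive cells, at least 3.02-fold higher over a floor of 3 reads for the group (adjusted p = 2.29e-06), but P13.9 held more, at 20.7. Il13, a type 2 cytokine, measured 38.0, 29.7 and 36.4 at 0.01 µM, against 19.7, 39.0 and 10.8 in naive cells, with 3.79 in P13.9, and did not pass (log2 change 0.73 ± 0.43, adjusted p = 0.173). The groups overlapped, since naive 2 was above all 3 libraries at 0.01 µM, and without naive 2 the gene was called higher (1.18, adjusted p = 0.0307). With all libraries it was also called higher by edgeR (1.37, adjusted p = 0.00729) and DESeq2 (1.21, adjusted p = 0.0303), after quantile normalization, with equal totals and after both subtractions of the P13.9 share. Il4 had 2 reads at 0.01 µM and none in naive cells, with 0.223 in P13.9, so no fold is given. Maf, which drives type 2 cytokines, measured 22.8, 18.8 and 15.2 at 0.01 µM, against 32.8, 27.3 and 26.0 in naive cells, with 0.773 in P13.9 (log2 change -0.59 ± 0.28, adjusted p = 0.0962).

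Among T helper 1 genes falls outnumbered rises, as they did over all genes. Of 16 tested, 2 rose, 6 fell and 8 did not pass, with a median of -0.88. Over all genes 21.7% were called higher and 27.7% lower, with a median of 0.03. With edgeR 2 of the list rose and 3 fell. The members that rose were Il12rb1, an interleukin-12 receptor chain, and the chemokine receptor gene Cxcr6. For Il12rb1 131 against 2 reads gave a ratio of 4.30, with exact bounds of 1.17 and 35.9 (adjusted p = 0.0202), with 2.29 in P13.9. For Cxcr6 133 against 3 reads gave 2.91, with exact bounds of 0.975 and 14.3 (adjusted p = 0.0183), with 0.446 in P13.9. Both lost their call without naive 3 or without 0.01 µM C, and Il12rb1 without naive 2. Among those that fell were Irf1, Ccl5, Gzma and Gzmb. Irf1, an interferon-induced factor, measured 29.5, 29.7 and 26.0 at 0.01 µM, against 72.1, 121 and 115 in naive cells, with 27.2 in P13.9 (log2 change -1.78 ± 0.19, adjusted p = 2.20e-06). Ccl5, a chemokine of effector and memory cells, measured 4.86, 5.80 and 5.40 at 0.01 µM, against 52.4, 35.1 and 84.5 in naive cells, with 4.63 in P13.9 (log2 change -3.11 ± 0.36, adjusted p = 3.81e-06). The granzyme gene Gzma measured 8.71, 8.35 and 7.42 at 0.01 µM, against 39.3, 27.3 and 12.99 in naive cells, with 1.25 in P13.9 (log2 change -1.46 ± 0.34, adjusted p = 0.00225), a call that edgeR did not make (-0.78, adjusted p = 0.13). Ifng, the type 1 cytokine, was below the filter, at 0.670, 0.232 and 0.337 at 0.01 µM against 6.55, 0 and 8.66 in naive cells, with 0.223 in P13.9.

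The lists of other helper fates were short. Over all genes 21.7% were called higher and 27.7% lower. In the follicular helper list 4 of 6 genes fell and 2 did not pass, and the median was -1.77. Without any 1 naive library 2 fell, since Bcl6 and Tox then missed the filter. The 4 were Bcl6, Tox, Cd40lg and Slamf6. Bcl6, which directs that fate, measured 1.17, 0.696 and 2.02 at 0.01 µM, against 13.1, 11.7 and 21.7 in naive cells, with 3.73 in P13.9 (log2 change -2.84 ± 0.38, adjusted p = 2.19e-05). Tox, a nuclear factor, measured 2.85, 1.39 and 1.69 at 0.01 µM, against 6.55, 31.2 and 56.3 in naive cells, with 0.511 in P13.9 (log2 change -3.05 ± 0.59, adjusted p = 0.000557). Cd40lg, the helper signal to B cells, measured 1.68, 1.85 and 1.69 at 0.01 µM, against 6.55, 15.6 and 17.3 in naive cells, with 0.223 in P13.9 (log2 change -2.27 ± 0.49, adjusted p = 0.00139). In both, naive 1 was the lowest naive library and still above the 0.01 µM range, which for Tox the filter required. Bcl6 likewise passed the filter only because every naive library held it. Of 7 regulatory T cell genes 4 rose (Il2ra, Ebi3, Lgals1 and Capg) and 1 fell, and all but Il2ra among the 4 had a P13.9 mean above 6 (6.08, 142 and 26.0). The member that fell was Ikzf2, the gene of Helios, at 0.837, 0.696 and 1.01 at 0.01 µM, against 13.1, 62.5 and 36.8 in naive cells, with 1.25 in P13.9 (log2 change -4.13 ± 0.45, adjusted p = 2.53e-06). The presence of Ikzf2 in every naive library was required by the filter. Of 5 T helper 17 genes 3 rose and 2 fell, and the 3 that rose were Ccl20, Tmem176a and Tmem176b, at P13.9 means of 4.01, 52.5 and 49.8. After subtraction of the fibroblast-list share 1 of the list rose, and without 0.01 µM C also 1. The pair that fell was Il21r, an interleukin-21 receptor gene (log2 change -1.45 ± 0.35, P13.9 mean 0.767), and Rora. Rora, a nuclear receptor of that fate, measured 7.54, 4.87 and 5.40 at 0.01 µM, against 39.3, 31.2 and 30.3 in naive cells, with 1.70 in P13.9 (log2 change -2.33 ± 0.37, adjusted p = 0.000101).

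The balance of T cell identity genes turned with the scaling. Over all genes 21.7% were called higher and 27.7% lower. Of 24 tested, 1 rose, 9 fell and 14 did not pass, with a median of -0.16 that turned positive with edgeR, DESeq2, quantile scaling, equal totals and both subtractions of the P13.9 share (0.29 with equal totals). The calls were 6 higher and 5 lower with edgeR, 7 and 5 after quantile normalization, 7 and 5 with equal totals and 8 and 4 after subtraction of the fibroblast-list share. Cd28, the main costimulatory receptor, measured 19.8, 20.4 and 13.5 at 0.01 µM, against 72.1, 70.3 and 99.6 in naive cells, with 0.593 in P13.9 (log2 change -2.12 ± 0.30, adjusted p = 3.67e-05). Thy1, a surface glycoprotein used to mark mouse T cells, was the member that rose, at 97.0, 90.7 and 80.3 at 0.01 µM, against 45.9, 39.0 and 19.5 in naive cells, with 1.99 in P13.9 (log2 change 1.42 ± 0.24, adjusted p = 0.00021). It is also on the fibroblast list, though P13.9 held little of it.

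Genes were next picked that stood above naive cells and also above the presenting cells. Against P13.9, 886 of 8179 genes were called higher at 0.01 µM, which is 10.8%, and 1170 were called lower, which is 14.3%. Of the 7264 genes, 221 were called higher than naive cells and higher than P13.9, which is 3.04%. In 68 of these the mean was at least 20, the groups did not overlap and every 0.01 µM library stood above every P13.9 library. The count above both was 390 without naive 1, and 141 and 147 without 0.01 µM A and B. Against P13.9 alone, the calls in both directions numbered 2056, and 1339 and 1283 without P13.9 replicates 1 and 2. Penk, which encodes the opioid precursor proenkephalin, measured 70.7, 69.3 and 86.4 at 0.01 µM, against 6.55, 23.4 and 4.33 in naive cells, with 1.78 in P13.9 (log2 change 2.94 ± 0.39, adjusted p = 1.74e-05 against naive cells, and 5.07 ± 0.49, adjusted p = 4.22e-07 against P13.9). Trat1, an adaptor bound to the T cell receptor, measured 40.4, 34.3 and 37.5 at 0.01 µM, against 13.1, 3.90 and 2.17 in naive cells, with 0.223 in P13.9 (log2 change 2.67 ± 0.43, adjusted p = 0.000128). Both genes were picked from those 68, so their lack of overlap with naive cells and with P13.9 was a condition of the choice. Psmb8, an immunoproteasome subunit, measured 61.1, 58.6 and 53.6 at 0.01 µM, against 13.1, 31.2 and 12.99 in naive cells, with 14.0 in P13.9 (log2 change 1.66 ± 0.28, adjusted p = 0.000184). Other genes of this class were Glipr2 (log2 change 2.50 ± 0.32), Tesc (1.81 ± 0.46), Lmnb1 (1.88 ± 0.49) and Erg28 (1.90 ± 0.36), with P13.9 means of 12.3, 0.370, 19.6 and 10.7. In the fit of the 6 libraries alone Tesc and Lmnb1 were not called (1.81, adjusted p = 0.0749 and 1.88, adjusted p = 0.0737).

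**Figure D3:**
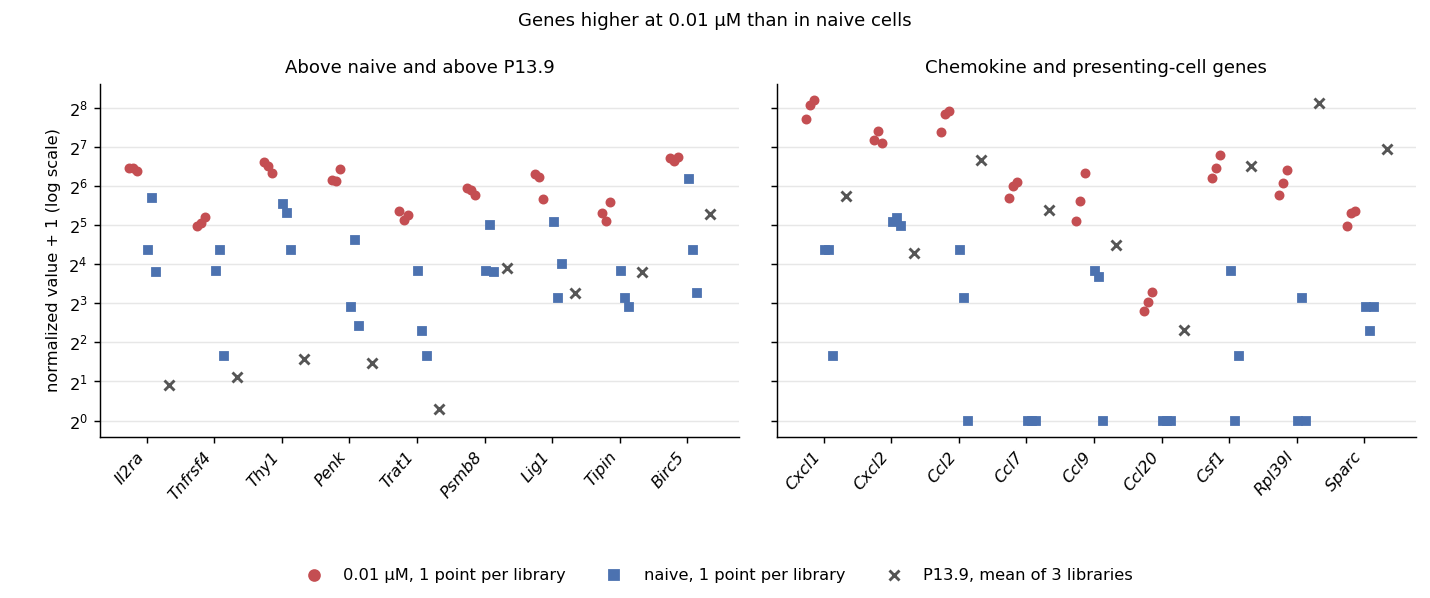
Normalized value + 1 on a log2 axis for 9 genes called above naive cells and above P13.9 (left) and 9 chemokine and presenting-cell genes (right). Red circles are 0.01 µM libraries, blue squares are naive libraries and grey crosses are P13.9 means. On the left the crosses lie below the red circles, which is no separate result because those genes were chosen as called above P13.9. On the right the crosses of Rpl39l and Sparc lie above all 3 red circles.

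Most cell division genes rose. Of 40 DNA replication genes tested 27 rose and 13 did not pass, with a median of 1.43, or 1.38 with the 4 genes without a naive read at their lower bound. Of 35 mitosis genes 27 rose and 8 did not pass, with a median of 2.16, or 2.10 at the bounds. P13.9 expressed these genes as well, and 12 of the replication genes and 6 of the mitosis genes were called above naive cells and above P13.9. Lig1, the ligase that joins fragments of the lagging strand, measured 78.0, 73.7 and 50.3 at 0.01 µM, against 32.8, 7.81 and 15.2 in naive cells, with 8.65 in P13.9 (log2 change 1.99 ± 0.35, adjusted p = 0.000261). Mcm3, a subunit of the replicative helicase, measured 49.2, 47.3 and 45.2 at 0.01 µM, against 19.7, 11.7 and 12.99 in naive cells, with 20.4 in P13.9 (log2 change 1.64 ± 0.18, adjusted p = 2.77e-06). Tipin, a fork protection gene on no list, measured 39.0, 33.4 and 47.2 at 0.01 µM, against 13.1, 7.81 and 6.50 in naive cells, with 13.1 in P13.9 (log2 change 2.05 ± 0.25, adjusted p = 6.77e-06). Birc5, which encodes survivin of the chromosomal passenger complex, measured 104, 99.9 and 106 at 0.01 µM, against 72.1, 19.5 and 8.66 in naive cells, with 38.2 in P13.9 (log2 change 2.10 ± 0.46, adjusted p = 0.00165). All libraries at 0.01 µM exceeded all naive libraries in these 4 genes, which was a condition of choice for all but Mcm3. In each of the 4 naive 1 was the highest naive library. The mitotic cyclin gene Ccnb1 measured 25.6, 19.2 and 26.6 at 0.01 µM against no naive read, at least 6.90-fold higher (adjusted p = 8.81e-10), with 12.9 in P13.9. Rrm2, a subunit of the enzyme that makes deoxynucleotides, measured 49.1, 56.8 and 60.0 at 0.01 µM, against 13.1, 0 and 2.17 in naive cells, with 24.2 in P13.9, and its 716 reads against 3 gave a ratio of 15.7, with exact bounds of 5.34 and 76.2 (adjusted p = 6.06e-05).

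Most nuclear genes of mitochondrial energy metabolism rose. Among 53 genes for the respiratory chain and ATP synthase, 36 rose, 1 fell and 16 missed the threshold, with a median of 0.91. The member that fell was Atp5l, a subunit of ATP synthase, at 3.68, 2.78 and 5.06 at 0.01 µM, against 13.1, 7.81 and 19.5 in naive cells, with 3.45 in P13.9 (log2 change -1.52 ± 0.41, adjusted p = 0.00654), a call that edgeR did not make. Ndufv2, a subunit of complex I, measured 26.6, 34.1 and 45.2 at 0.01 µM, against 6.55, 3.90 and 6.50 in naive cells, with 38.1 in P13.9 (log2 change 2.44 ± 0.27, adjusted p = 2.82e-06). Cox5a, a subunit of cytochrome c oxidase, measured 78.4, 77.9 and 104 at 0.01 µM, against 32.8, 23.4 and 21.7 in naive cells, with 63.9 in P13.9 (log2 change 1.71 ± 0.20, adjusted p = 4.25e-06). No library at 0.01 µM reached down to the naive range in either. Only 2 of the genes of this list were called above P13.9 as well as above naive cells. Among other lists, glycolysis, cytosolic ribosome, ribosome assembly, proteasome and chaperones held 0 such genes. The translation and the amino acid lists held 1 each, and cholesterol and redox 2 each. The one-carbon and nucleotide list held 4, and actin and homing 5 each.

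Transcripts made inside mitochondria went the other way. All 7 mitochondrially encoded genes tested fell, with a median of -2.03. mt-Co1, a core subunit of cytochrome c oxidase, measured 106, 118 and 159.9 at 0.01 µM, against 1173, 1093 and 1172 in naive cells, with 226 in P13.9 (log2 change -3.18 ± 0.18, adjusted p = 2.22e-09). mt-Cytb, the cytochrome of complex III, measured 459.9, 449 and 443 at 0.01 µM, against 2169, 2413 and 2843 in naive cells, with 885 in P13.9 (log2 change -2.44 ± 0.13, adjusted p = 1.27e-09). The naive libraries were several times higher in each, with no overlap. mt-Nd1, a subunit of complex I, measured 872, 908 and 865 at 0.01 µM, against 3257, 3139 and 3738 in naive cells, with 1484 in P13.9 (log2 change -1.93 ± 0.14, adjusted p = 2.59e-08), and its log2 change became 0 after quantile normalization.

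Genes of glycolysis and of nucleotide synthesis moved more often up than down. Of 23 glycolysis genes 11 rose, 4 fell and 8 missed the threshold, with a median of 0.94, or 0.76 at the bounds. The members that fell were Eno1, Pdk1, Pfkfb3 and Bpgm, with log2 changes of -1.03 ± 0.33, -1.13 ± 0.32, -0.99 ± 0.39 and -0.91 ± 0.36 and P13.9 means of 8.81, 6.18, 0.550 and 2.99, and edgeR called none of these 4. Pkm, the last enzyme of the pathway, measured 81.2, 92.3 and 66.8 at 0.01 µM, against 45.9, 35.1 and 17.3 in naive cells, with 101 in P13.9 (log2 change 1.35 ± 0.27, adjusted p = 0.000773). Pfkp, a phosphofructokinase, measured 29.5, 30.8 and 27.3 at 0.01 µM, against 13.1, 11.7 and 15.2 in naive cells, with 39.8 in P13.9 (log2 change 1.08 ± 0.18, adjusted p = 0.000168). In serine, one-carbon and nucleotide synthesis 16 of 26 genes rose and 1 fell, with a median of 1.16. Nme1, a nucleoside diphosphate kinase, measured 64.1, 66.8 and 70.5 at 0.01 µM, against 19.7, 27.3 and 23.8 in naive cells, with 30.7 in P13.9 (log2 change 1.48 ± 0.18, adjusted p = 7.24e-06). Shmt2, the mitochondrial serine hydroxymethyltransferase, measured 31.3, 24.3 and 26.6 at 0.01 µM, against 0, 7.81 and 2.17 in naive cells, with 9.92 in P13.9, and its 371 reads against 3 gave a ratio of 8.12, with exact bounds of 2.76 and 39.6 (adjusted p = 0.000116). The member that fell was Aldh1l2, a mitochondrial folate dehydrogenase, at 0.335, 2.32 and 1.69 at 0.01 µM, against 19.7, 19.5 and 12.99 in naive cells, with 27.7 in P13.9 (log2 change -2.99 ± 0.37, adjusted p = 9.80e-06). Its presence in every naive library was required by the filter.

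The machinery of protein synthesis and turnover split, beside 21.7% called higher and 27.7% called lower over all genes. Of 71 cytosolic ribosomal protein genes 2 rose, 31 fell and 38 missed the threshold, with a median of -0.56. The pair that rose was Rpl11 and Rpl36, both under a mean of 10 at 0.01 µM. Many of these genes have near-identical pseudogenes that 3′ reads may not separate. Under the other scalings their calls were 10 higher and 14 lower with edgeR and 7 and 16 with equal totals. Of 31 ribosome assembly genes 5 rose and 2 fell, with a median of 0.39, and with edgeR 11 rose and 0 fell. The 5 that rose were Dkc1, Npm1, Nop10, Nop2 and Bysl, and the pair that fell was Ncl and Nop58. Dkc1, the pseudouridine synthase dyskerin, measured 40.2, 34.8 and 34.8 at 0.01 µM, against 6.55, 7.81 and 12.99 in naive cells, with 24.6 in P13.9 (log2 change 1.94 ± 0.41, adjusted p = 0.00115). Ncl, the gene of nucleolin, measured 123, 106 and 103 at 0.01 µM, against 138, 203 and 201 in naive cells, with 135 in P13.9 (log2 change -0.69 ± 0.20, adjusted p = 0.0107), a fall that edgeR did not call (-0.09, adjusted p = 0.746). Among translation factors and tRNA synthetases 13 of 37 rose and 6 fell, and without 0.01 µM C 8 rose and 8 fell. Gars, the glycine tRNA synthetase, measured 45.4, 41.0 and 50.6 at 0.01 µM, against 6.55, 11.7 and 10.8 in naive cells, with 78.4 in P13.9 (log2 change 2.16 ± 0.20, adjusted p = 4.79e-07). Eif1, a start codon selection factor, measured 29.6, 24.3 and 23.9 at 0.01 µM, against 65.5, 66.4 and 86.6 in naive cells, with 41.9 in P13.9 (log2 change -1.45 ± 0.18, adjusted p = 1.18e-05). With edgeR 24 of that list rose and 3 fell.

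Of 33 proteasome genes 17 rose, 1 fell (Psma3, a call lost in 12 of 18 alternatives) and 15 did not pass, with a median of 0.75, and edgeR called 27 higher. Psmb6, a catalytic subunit, measured 46.1, 47.8 and 67.8 at 0.01 µM, against 13.1, 11.7 and 28.1 in naive cells, with 46.4 in P13.9 (log2 change 1.64 ± 0.27, adjusted p = 0.000129). Of 32 chaperone genes 14 rose and 4 fell, beside 20 and 2 with edgeR, 21 and 1 after quantile normalization and 22 and 2 with equal totals. The 4 that fell were Hsp90aa1, Hsp90ab1, Hspa8 and Dnaja1. Pdia3, which folds glycoproteins in the endoplasmic reticulum, measured 86.2, 82.8 and 61.4 at 0.01 µM, against 39.3, 23.4 and 39.0 in naive cells, with 62.7 in P13.9 (log2 change 1.18 ± 0.21, adjusted p = 0.000325). Hsp90ab1, a cytosolic chaperone, measured 444, 423 and 484 at 0.01 µM, against 832, 851 and 918 in naive cells, with 664 in P13.9 (log2 change -0.94 ± 0.16, adjusted p = 0.000179). The fall of Hsp90ab1 was not called by edgeR (-0.28, adjusted p = 0.189), and after quantile normalization its log2 change was 0.22, adjusted p = 0.408. Of 30 actin and S100 genes 18 rose and 12 did not pass, with a median of 1.12. Anxa6, a membrane-binding annexin, measured 97.6, 88.1 and 87.7 at 0.01 µM, against 39.3, 43.0 and 21.7 in naive cells, with 26.2 in P13.9 (log2 change 1.43 ± 0.20, adjusted p = 3.52e-05, and 1.76 ± 0.20, adjusted p = 3.09e-06 against P13.9). In the fit of the 6 libraries alone the genes that rose numbered 15 for oxidative phosphorylation, 16 for DNA replication, 3 for glycolysis, 5 for one-carbon and nucleotide synthesis, 7 for the proteasome and 9 for chaperones.

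Lipid, amino acid, redox and homing genes were also counted, beside 21.7% called higher and 27.7% called lower over all genes. Of 23 cholesterol and fatty acid synthesis genes 6 rose and 17 did not pass, with a median of 1.15. The count depended on the fit, and edgeR called 14 higher and the fit of the 6 libraries 1. Hsd17b7, a sterol reductase, measured 12.7, 15.3 and 13.5 at 0.01 µM, against 6.55, 0 and 2.17 in naive cells, with 3.69 in P13.9, and 182 against 2 reads gave a ratio of 5.98, with exact bounds of 1.63 and 49.8 (adjusted p = 0.00252). Among amino acid transporters and polyamine genes 5 of 14 rose and 5 fell, and with edgeR 7 rose and 2 fell. Those that rose were Slc7a5, Slc1a5, Slc43a3, Srm and Sms, and those that fell were Slc3a2, Slc38a1, Slc38a2, Azin1 and Sat1. Slc7a5, the large neutral amino acid transporter of activated T cells, measured 83.4, 82.5 and 73.5 at 0.01 µM, against 39.3, 39.0 and 30.3 in naive cells, with 49.0 in P13.9 (log2 change 1.13 ± 0.17, adjusted p = 6.77e-05). Slc38a2, a glutamine and alanine transporter, went the other way, at 29.6, 37.6 and 36.4 at 0.01 µM, against 190.1, 269 and 303 in naive cells, with 131 in P13.9 (log2 change -2.82 ± 0.22, adjusted p = 5.94e-08). The groups did not overlap for either transporter. Of 21 redox genes 12 rose and 1 fell, with a median of 0.89, and 3 rose in the fit of the 6 libraries. Prdx1, a peroxidase, measured 69.5, 75.6 and 65.1 at 0.01 µM, against 19.7, 19.5 and 52.0 in naive cells, with 36.1 in P13.9 (log2 change 1.33 ± 0.29, adjusted p = 0.00154). Prdx6, a relative that fell, measured 27.0, 25.5 and 35.4 at 0.01 µM, against 59.0, 74.2 and 69.3 in naive cells, with 45.0 in P13.9 (log2 change -1.19 ± 0.18, adjusted p = 8.86e-05). Of 22 homing and adhesion genes 6 rose and 10 fell, with a median of -0.22 that was 0.02 with edgeR. The calls were 8 higher and 7 lower with edgeR and 1 and 8 in the fit of the 6 libraries. Itga4, an integrin chain for entry into tissue, measured 2.68, 1.16 and 1.35 at 0.01 µM, against 32.8, 19.5 and 17.3 in naive cells, with 0 in P13.9 (log2 change -3.14 ± 0.38, adjusted p = 6.33e-06). Emb, an adhesion glycoprotein, measured 19.6, 23.2 and 22.9 at 0.01 µM, against 65.5, 66.4 and 58.5 in naive cells, with 13.8 in P13.9 (log2 change -1.49 ± 0.17, adjusted p = 4.24e-06).

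**Figure D4:**
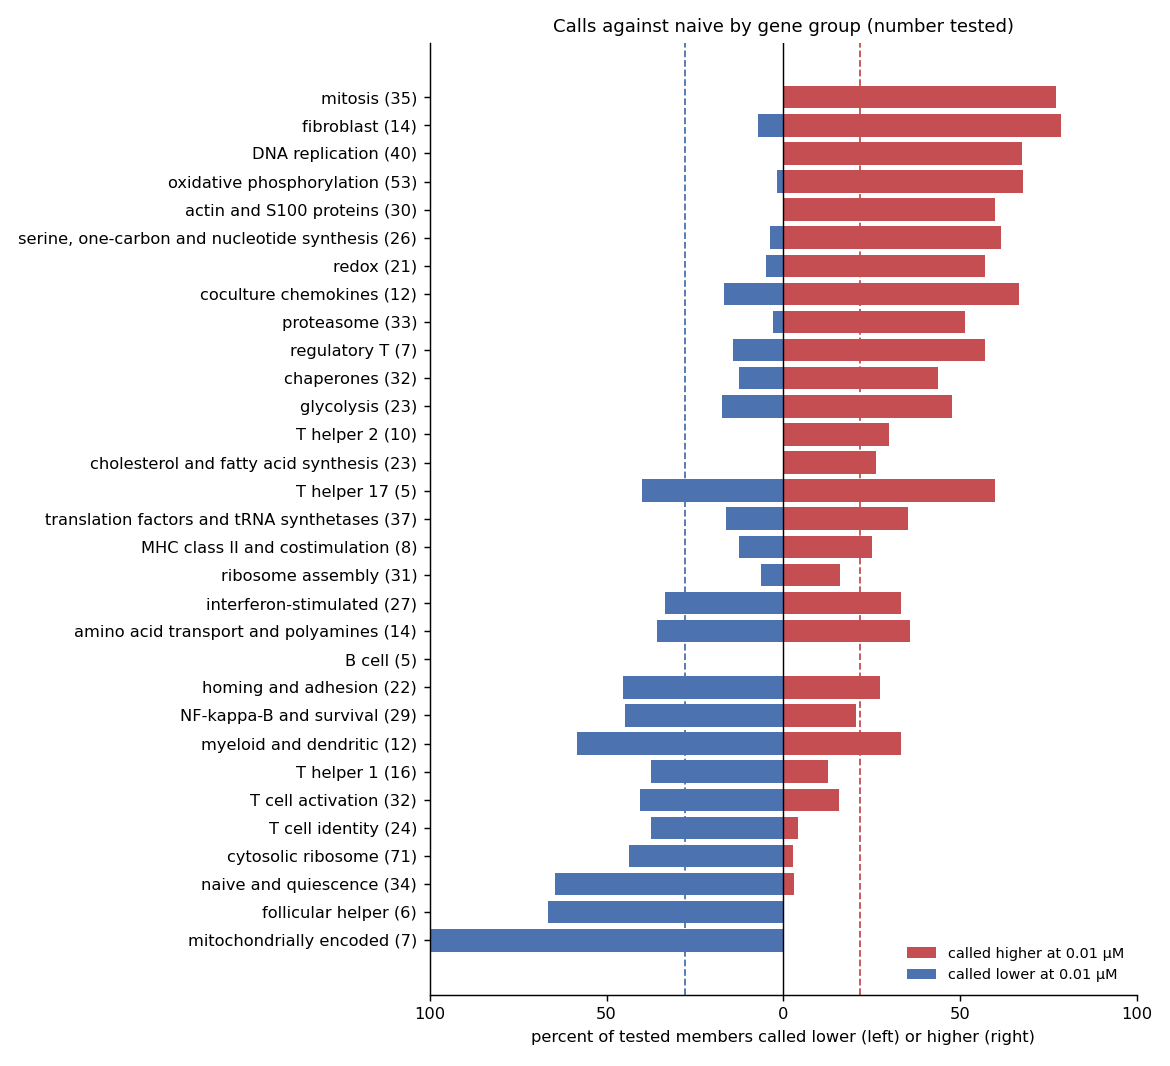
Percent of tested members called higher (red, right) or lower (blue, left) at 0.01 µM than in naive cells for the 31 lists with at least 5 genes tested. Dashed lines mark the same shares over all 7264 genes, 21.7% higher and 27.7% lower. Mitosis, fibroblast, DNA replication and oxidative phosphorylation lists extend furthest to the right, and mitochondrially encoded, follicular helper and naive lists furthest to the left.

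Chemokine genes were among the largest rises. Of 25 genes for chemokines and other secreted factors that fibroblasts can make in coculture, 12 were tested, 8 rose and 2 fell, with a median of 3.08, or 2.65 at the bounds. Those that fell were Ccl5, described above, and Lcn2, the lipocalin of neutrophils and inflamed tissue, at 3.35, 5.56 and 5.74 at 0.01 µM, against 32.8, 11.7 and 17.3 in naive cells, with 12.5 in P13.9 (log2 change -1.78 ± 0.42, adjusted p = 0.00249). Cxcl1, a neutrophil chemokine, measured 210.2, 269 and 296 at 0.01 µM, against 19.7, 19.5 and 2.17 in naive cells, with 52.9 in P13.9. It rose against naive cells (log2 change 4.54 ± 0.50, adjusted p = 2.83e-06) and stood above P13.9 alone (log2 difference 2.26 ± 0.47, adjusted p = 0.00154). Cxcl2, its neighbour on chromosome 5 with the same role, measured 144, 171 and 138 at 0.01 µM, against 32.8, 35.1 and 30.3 in naive cells, with 18.4 in P13.9 (log2 change 2.17 ± 0.28, adjusted p = 1.16e-05, and 2.96 ± 0.26, adjusted p = 1.38e-07 against P13.9). Both genes were higher at 0.01 µM than in naive cells or in P13.9 alone, and the 0.01 µM and naive libraries did not overlap. Ccl2, a monocyte chemokine, measured 167, 229.5 and 243 at 0.01 µM, against 19.7, 7.81 and 0 in naive cells, with 101 in P13.9 (log2 change 5.22 ± 0.77, adjusted p = 5.06e-05), and against P13.9 the difference did not pass (1.06 ± 0.71, adjusted p = 0.311).

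A further 4 genes of this list rose from few or no naive reads. Ccl7, another monocyte chemokine, measured 50.9, 63.1 and 68.5 at 0.01 µM against no read in naive cells, at least 17.1-fold higher (adjusted p = 1.63e-07), with 41.3 in P13.9. Ccl20, the ligand of CCR6, measured 6.03, 7.19 and 8.77 at 0.01 µM against no naive read, at least 2.04-fold higher (adjusted p = 5.01e-08), with 4.01 in P13.9. Csf1, the macrophage growth factor, measured 72.7, 88.1 and 110.0 at 0.01 µM, against 13.1, 0 and 2.17 in naive cells, with 91.0 in P13.9, and 1140 against 3 reads gave a ratio of 25.0, with exact bounds of 8.52 and 121 (adjusted p = 0.000101). Ccl9, a chemokine found in mice, measured 33.7, 48.5 and 80.3 at 0.01 µM, against 13.1, 11.7 and 0 in naive cells, with 21.5 in P13.9 (log2 change 3.20 ± 0.75, adjusted p = 0.00257). Of the 7 genes described, all but Cxcl2 ran lowest in library A and highest in library C at 0.01 µM, as the fibroblast-list share did. The share by genes without a naive read was lowest in A (20.2%) but highest in B (25.6%, with 25.3% in C). How far the presenting cells supplied these transcripts was not tested.

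Promoters of these genes are shown because they share a sequence feature that the list did not use. NF-κB, the factor that turns on many inflammatory genes, binds sites of the form GGG, then 2 bases of any kind, then TTTCC. RefSeq promoters of the build GRCm38.p6, from 250 bases before to 50 after the start, were searched on both strands. Of the 8 named genes of the list 5 had a promoter in the table, and all 5 held the motif, beside 1.63% of 32851 promoters. Over the whole list 18 of 25 genes had a promoter and 7 held it, Cxcl3 and Il6 being the others. The promoters run 5′ to 3′ on the strand of the gene, with matches to either strand in capitals. A match is a description of the letters and no evidence of binding. The windows are chr5:90890995-90891294 for Cxcl1, chr5:90903649-90903948 for Cxcl2 and chr1:83116516-83116815 for Ccl20, all on the plus strand, and chr11:83578587-83578886 for Ccl9 and chr3:107760420-107760719 for Csf1, both on the minus strand.
Cxcl1: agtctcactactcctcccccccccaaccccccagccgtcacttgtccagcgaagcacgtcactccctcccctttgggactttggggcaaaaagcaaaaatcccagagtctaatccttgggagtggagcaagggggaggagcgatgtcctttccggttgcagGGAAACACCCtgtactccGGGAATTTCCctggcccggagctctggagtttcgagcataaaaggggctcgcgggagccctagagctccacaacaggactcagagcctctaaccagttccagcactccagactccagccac
Cxcl2: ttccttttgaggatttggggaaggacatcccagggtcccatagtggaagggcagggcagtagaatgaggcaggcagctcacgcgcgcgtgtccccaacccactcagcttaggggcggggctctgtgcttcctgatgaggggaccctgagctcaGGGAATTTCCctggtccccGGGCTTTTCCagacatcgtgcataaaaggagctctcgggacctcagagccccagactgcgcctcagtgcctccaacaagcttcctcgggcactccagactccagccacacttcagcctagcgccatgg
Ccl20: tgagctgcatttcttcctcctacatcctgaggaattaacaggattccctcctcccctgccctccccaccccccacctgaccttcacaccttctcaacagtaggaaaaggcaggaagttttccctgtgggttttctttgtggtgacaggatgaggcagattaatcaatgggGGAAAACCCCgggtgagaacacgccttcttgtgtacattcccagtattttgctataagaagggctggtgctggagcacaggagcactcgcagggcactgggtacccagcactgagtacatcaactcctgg
Ccl9: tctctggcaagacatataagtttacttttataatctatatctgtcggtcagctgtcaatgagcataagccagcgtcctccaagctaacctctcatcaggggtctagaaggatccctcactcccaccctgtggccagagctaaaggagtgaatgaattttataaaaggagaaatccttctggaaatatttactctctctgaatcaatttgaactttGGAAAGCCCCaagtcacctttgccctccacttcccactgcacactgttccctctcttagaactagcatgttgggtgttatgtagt
Csf1: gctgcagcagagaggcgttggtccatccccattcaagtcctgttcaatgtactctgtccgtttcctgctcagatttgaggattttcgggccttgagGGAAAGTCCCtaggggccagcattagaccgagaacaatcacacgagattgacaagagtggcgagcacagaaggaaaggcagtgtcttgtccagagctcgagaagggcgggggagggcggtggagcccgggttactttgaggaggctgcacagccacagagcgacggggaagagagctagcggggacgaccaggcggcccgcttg

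The promoters of Cxcl1 and Cxcl2 each held 2 matches, which began 89 and 71 bases before the start in Cxcl1 and 97 and 78 bases before it in Cxcl2. Those of Ccl20, Ccl9 and Csf1 held 1 each. Both other motifs were counted on the lists they were chosen for. The E-box CACGTG, bound by MYC, was in 1 of 4 named ribosome assembly genes (Nop2) and in 7 of 30 over that list, beside 7.15% of all promoters. The interferon element, TTTC, 2 bases of any kind and TTTC again, was in 1 of 4 named interferon-stimulated genes (Rsad2) and in 18 of 33 over that list, beside 3.44% of all promoters.

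Most genes typical of fibroblasts rose. Of 14 tested 11 rose, 1 fell and 2 did not pass, with a median of 2.59, or 2.55 at the bounds. The member that fell was Bgn, a matrix proteoglycan, at 0.168, 0 and 0 at 0.01 µM, against 6.55, 7.81 and 12.99 in naive cells, with 0.147 in P13.9, and a ratio of reads of 0.00730, with exact bounds of 0.000167 and 0.0527 (adjusted p = 3.72e-09). The filter required Bgn to be present in every naive library. A total of 9 genes of this list set the fibroblast-list share, so their rise and that share are one measurement. Sparc, a matrix protein, measured 30.8, 38.5 and 40.5 at 0.01 µM, against 6.55, 3.90 and 6.50 in naive cells, with 123 in P13.9 (log2 change 2.52 ± 0.32, adjusted p = 1.21e-05). Other large rises were of genes that P13.9 held at a higher level than the 0.01 µM libraries. Rpl39l, a ribosomal protein paralog, measured 53.4, 66.3 and 84.7 at 0.01 µM, against 0, 7.81 and 0 in naive cells, with 278 in P13.9, and its 856 reads against 2 gave a ratio of 28.1, with exact bounds of 7.76 and 233 (adjusted p = 8.99e-06). Rhoc, a small GTPase, measured 37.4, 42.9 and 44.2 at 0.01 µM, against 0, 3.90 and 0 in naive cells, with 154 in P13.9, and a ratio of reads of 35.4, with exact bounds of 6.33 and 1401 (adjusted p = 1.97e-06). Cavin1, a caveolar coat gene, measured 41.4, 58.4 and 60.0 at 0.01 µM, against 0, 11.7 and 0 in naive cells, with 174 in P13.9, and a ratio of reads of 14.8, with exact bounds of 5.05 and 72.1 (adjusted p = 0.000115). After subtraction of the fibroblast-list share, which Sparc helped to set, all 4 of these turned, Sparc to -2.71, adjusted p = 1.29e-05, Rpl39l to -1.05, adjusted p = 0.197, Rhoc to -0.76, adjusted p = 0.251 and Cavin1 to -1.22, adjusted p = 0.186. With the share by genes without a naive read none of the 4 turned, at 0.71, adjusted p = 0.121 for Sparc, 0.39, adjusted p = 0.76 for Rpl39l, 2.08, adjusted p = 0.00449 for Rhoc and 2.76, adjusted p = 0.0074 for Cavin1. Ddr1, Anxa5 and Crip2, large rises whose P13.9 means of 80.8, 85.9 and 66.5 also lay above their 0.01 µM means, stayed positive after subtraction of the fibroblast-list share, at 0.98, adjusted p = 0.436, 2.27, adjusted p = 0.00754 and 2.96, adjusted p = 0.000694.

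The balance of interferon-stimulated genes depended on the fit. For these and the NF-κB genes the shares over all genes were 21.7% higher and 27.7% lower. Of 27 tested 9 rose, 9 fell and 9 did not pass, with a median of 0.37. The calls were 9 higher and 5 lower with edgeR, 11 and 6 with equal totals and 4 and 8 in the fit of the 6 libraries. Rsad2, which encodes the antiviral enzyme viperin, measured 1.00, 1.62 and 0.337 at 0.01 µM, against 19.7, 7.81 and 12.99 in naive cells, with 0.147 in P13.9 (log2 change -2.83 ± 0.34, adjusted p = 5.88e-06). Parp14, an ADP-ribosyl transferase, measured 3.52, 3.48 and 2.36 at 0.01 µM, against 26.2, 23.4 and 28.1 in naive cells, with 0.517 in P13.9 (log2 change -2.72 ± 0.36, adjusted p = 1.82e-05). Both were low at 0.01 µM and clear in every naive library, which the filter required of them. Psmb8, described above, rose. Among NF-κB and survival genes 6 of 29 rose, 13 fell and 10 did not pass, with a median of -0.88. Nfkbia, the inhibitor that NF-κB itself induces, measured 278, 304 and 302 at 0.01 µM, against 806, 1035 and 1319 in naive cells, with 322 in P13.9 (log2 change -1.81 ± 0.17, adjusted p = 6.15e-07). Rel, an NF-κB subunit of lymphocytes, measured 5.53, 4.17 and 5.74 at 0.01 µM, against 32.8, 43.0 and 60.6 in naive cells, with 3.31 in P13.9 (log2 change -2.88 ± 0.45, adjusted p = 8.89e-05). Mcl1, a survival factor, measured 52.2, 51.2 and 48.6 at 0.01 µM, against 111, 144 and 210.1 in naive cells, with 63.1 in P13.9 (log2 change -1.55 ± 0.20, adjusted p = 1.41e-05). Bak1, a death effector, measured 33.5, 32.5 and 27.3 at 0.01 µM, against 13.1, 11.7 and 10.8 in naive cells, with 13.8 in P13.9 (log2 change 1.31 ± 0.19, adjusted p = 4.12e-05).

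Markers of other cells were present in the naive libraries. S100a8 and S100a9, the calprotectin genes of neutrophils and monocytes, were among the clearest. S100a8 measured 27.6, 25.7 and 30.0 at 0.01 µM, against 472, 558 and 420.1 in naive cells, with 0.370 in P13.9 (log2 change -4.07 ± 0.30, adjusted p = 3.66e-08). S100a9 measured 12.2, 11.4 and 17.9 at 0.01 µM, against 236, 406 and 375 in naive cells, with 0.446 in P13.9 (log2 change -4.51 ± 0.39, adjusted p = 2.15e-07). Camp, the cathelicidin of neutrophil granules, measured 1.34, 1.39 and 3.04 at 0.01 µM, against 78.6, 121 and 95.3 in naive cells, with no read in P13.9 (log2 change -5.11 ± 0.55, adjusted p = 1.95e-06). Lyz2, the lysozyme of myeloid cells, measured 1.17, 1.16 and 2.70 at 0.01 µM, against 26.2, 27.3 and 56.3 in naive cells, with 0.223 in P13.9 (log2 change -3.77 ± 0.35, adjusted p = 3.99e-07). Every naive library carried these transcripts, which for Lyz2 the filter required. Of 12 myeloid and dendritic genes 4 rose and 7 fell, beside 21.7% higher and 27.7% lower over all genes. The 4 that rose, Ctsb, Ctsd, Ctsz and Lgals3, had P13.9 means of 103, 30.1, 29.9 and 145. The balance became 4 and 3 of 8 tested without naive 2 and likewise without naive 3, since genes seen in naive cells alone then missed the filter on 3 libraries. Without naive 1 it was 3 and 4. Of 8 genes for MHC class II chains and costimulatory ligands 2 rose, Cd40 and Cd80, at P13.9 means of 6.44 and 20.3, and 1 fell. That one, H2-Aa, an MHC class II chain of B cells and other presenting cells, measured 1.00, 1.39 and 0.337 at 0.01 µM, against 13.1, 19.5 and 23.8 in naive cells, with no read in P13.9 (log2 change -3.38 ± 0.32, adjusted p = 5.37e-07). Klrk1, the gene of the receptor NKG2D of killer cells, measured 0.168, 0 and 0.337 at 0.01 µM, against 13.1, 23.4 and 23.8 in naive cells, with 0.256 in P13.9, and its 2 against 19 reads gave a ratio of 0.00692, with exact bounds of 0.000781 and 0.0287 (adjusted p = 1.29e-09). For H2-Aa and Klrk1 too the filter required presence in every naive library. Of 5 B cell genes tested limma called 0, with 0 also before adjustment at p below 0.05. Both edgeR and DESeq2 called 1 of them lower, Cd74 (-1.42, adjusted p = 0.0273 with edgeR). The part of these cells in the falls described above was not tested.

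Some of the largest falls were of genes that T cells are not known for. Nrxn3, a synaptic adhesion gene, had no read at 0.01 µM against 52.4, 50.8 and 28.1 in naive cells, at least 172-fold lower (adjusted p = 1.53e-09), with 0.256 in P13.9. Lrp1b, a large lipoprotein receptor gene, had no read at 0.01 µM against 13.1, 50.8 and 56.3 in naive cells, at least 208-fold lower (adjusted p = 6.38e-08), with none in P13.9. Napb, a vesicle fusion factor of the brain, measured 0.168, 0.232 and 0.337 at 0.01 µM, against 59.0, 66.4 and 47.6 in naive cells, with 1.29 in P13.9, and its 3 reads against 48 gave a ratio of 0.00411, with exact bounds of 0.000818 and 0.0127 (adjusted p = 2.10e-10). These 3 genes were close to absent at 0.01 µM, where the libraries were several times deeper. Genes near absent at every dose passed the filter only if all 3 naive libraries held them, so presence in each was fixed in advance. The share of reads in unnamed features, given above, was also higher in each naive library. Its part in these values was not tested.

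The 0.01 µM libraries were last set against the mean of the 3 higher doses, to see which of their changes from naive cells are not shared. Of 7264 genes 543 were called higher at 0.01 µM than at the other doses, which is 7.48%, and 260 were called lower, which is 3.58%. Together these are 803 genes, and without 0.01 µM A, B or C the count was 291, 239 and 277. Both sets of cells share the naive libraries as their reference, so each change is given on its own. In the glycolysis list 15 of 23 genes were lower at 0.01 µM than at the other doses, among them Pfkp (log2 difference -1.42 ± 0.15, adjusted p = 5.14e-05) and Pkm (-1.27 ± 0.22, adjusted p = 0.00207). Of 71 cytosolic ribosome genes 21 were lower, and of the replication genes 1 was higher and 2 were lower. For chemokine genes 8 of 12 were higher at 0.01 µM, among them Cxcl1 (3.92 ± 0.41, adjusted p = 5.15e-05). Tbx21 was lower at 0.01 µM (-2.55 ± 0.31, adjusted p = 0.000131) and Gata3 higher (0.59 ± 0.18, adjusted p = 0.0418). The P13.9 share by the fibroblast list was 37.2 ± 9.08% (SD, n = 3) at 0.01 µM, and its group means at the other doses were 9.43%, 6.95% and 2.65%.

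In all, 11 genes were called in one direction at 0.01 µM and in the other at the higher doses, with the difference between them called too. Cd44, described above, rose at 0.01 µM and fell at the other doses (log2 change -0.54 ± 0.15, adjusted p = 0.00467 against naive cells), and the difference was 1.51 ± 0.15, adjusted p = 2.34e-05. Marcks, a membrane and actin regulator nearly absent from P13.9, measured 38.4, 35.9 and 32.0 at 0.01 µM, against 13.1, 23.4 and 26.0 in naive cells, with 0.659 in P13.9 (log2 change 0.79 ± 0.31, adjusted p = 0.0457). At 0.1, 1.0 and 10 µM its means were 11.3, 12.3 and 8.92. Its rise against naive cells was close to the threshold and was lost in 8 of 18 alternatives, each single 0.01 µM library left out among them. Cmtm7, a membrane protein of lymphocytes, went the other way, at 14.4, 14.4 and 15.9 at 0.01 µM, against 26.2, 23.4 and 23.8 in naive cells, with 12.2 in P13.9 (log2 change -0.68 ± 0.24, adjusted p = 0.0263). Its means at 0.1, 1.0 and 10 µM were 85.0, 90.3 and 48.8, and its call against naive cells was lost in 9 of 19 alternatives. S100a4, a calcium-binding protein of motile cells, measured 103, 150.5 and 148 at 0.01 µM, against 39.3, 39.0 and 32.5 in naive cells, with 209 in P13.9 (log2 change 1.81 ± 0.24, adjusted p = 1.64e-05). Ccnd1, the gene of cyclin D1, measured 58.1, 68.4 and 67.5 at 0.01 µM, against 19.7, 11.7 and 12.99 in naive cells, with 107 in P13.9 (log2 change 2.08 ± 0.34, adjusted p = 0.000132). In both the P13.9 mean was above every T cell library of the 0.01 µM and naive groups.

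**Figure D5:**
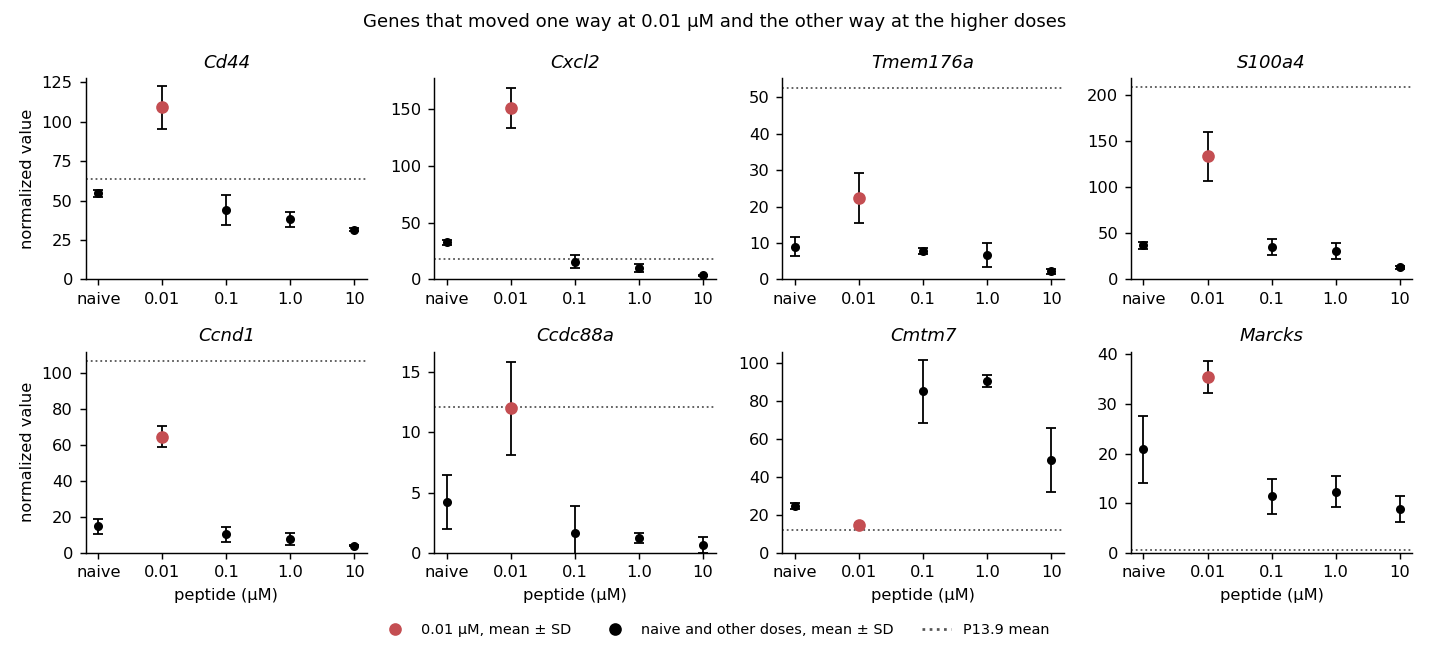
Mean normalized value ± SD (n = 3) in naive cells and at 0.01, 0.1, 1.0 and 10 µM peptide for the 8 genes with the largest such difference. Red marks 0.01 µM and the dotted line is the P13.9 mean. Of the 8, 7 are highest at 0.01 µM and Cmtm7 is lowest there, and the P13.9 line of Marcks lies near 0, at 0.659.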

How the data were processed

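The deposited table holds 15808 features in 18 libraries of 3′ messenger RNA sequencing. Per the submitters' processing notes, STAR 2.6.1d, HTSeq 0.9.1, FastQC 0.11.8 and DESeq2 were used with the build mm10. The deposited values are a signal on the scale of read counts divided by 1 size factor per library, a scaling found from the values themselves. Whole reads were recovered for 99.9996% of 284544 values, within 1e-05 of a read. Every column was matched to a group, and 0 were left out. Features without a gene name, 110 of them, were left out of totals and tests. Of the 15698 others 13863 matched a RefSeq symbol, 30 an older one and 1805 none, and these keep the name in the table.

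Tests used R 4.3.3 and limma 3.58.1 (lmFit, eBayes with a trend) on log2(value + 1), a scale that understates the change of low genes. A gene was kept if 3 or more libraries of the fit had a value of 5 or more. A gene near absent at every dose was therefore tested only if all 3 naive libraries held it. With a naive library left out, such a gene was not tested. The Benjamini-Hochberg adjustment ran over all genes kept, and an adjusted p below 0.05 was a call. The fit held the 15 T cell libraries, or all 18 for the contrast with P13.9. The limma fit of the contrast with naive cells was tested on simulated data, with the same spread in every group. The changed genes there had a mean of at least 20, and the other fits and contrasts were not tested so. Alternatives were edgeR 4.0.16 and DESeq2 1.42.0 on the recovered reads, other filters, pseudocounts, scalings and fits, each library left out, and subtraction of a P13.9 share. Each share is the median, over its genes, of a library's value as a percent of the P13.9 mean. After that share of the P13.9 mean was taken off, the rest was scaled up to make good the part removed.

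The genes, lists and contrasts were chosen with earlier results of these data known. Named genes are a fixed set of fate and activation genes, the 15 largest rises and falls whose mean was at least 20 and whose groups did not overlap, the 15 largest rises above naive cells and P13.9, from each list the 5 genes with the lowest adjusted p, and the 8 largest changes opposite to the other doses. Where a list had 5 or fewer calls in a direction, all were named, some of them after their values were seen. The table numbers the naive libraries while the sample titles letter them, so naive 1, 2 and 3 are names of columns only. Some genes of the lists are not reported here.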

Additional observations from a re-analysis of the deposited data

Results flagged for a closer look

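The change from naive cells differed between 0.01 µM and the mean of the 3 higher doses in 8 named genes, each called in one direction at 0.01 µM and in the other at the higher doses, by limma's test of the difference itself. The difference in log2 value, 0.01 µM minus the other doses, was 4.01 for Cxcl2, 3.11 for Ccnd1, 2.71 for Ccdc88a, 2.40 for S100a4, 1.95 for Tmem176a, 1.66 for Marcks and 1.51 for Cd44. It was -2.18 for Cmtm7. Ccdc88a, an actin-binding protein of migrating cells, measured 11.2, 8.58 and 16.2 at 0.01 µM, against 6.55, 3.90 and 2.17 in naive cells, with 12.1 in P13.9, and 152 against 3 reads, a ratio of 3.33, with exact bounds of 1.12 and 16.3 (adjusted p = 0.0403). Its call against naive cells was lost in 11 of 18 alternatives. Tmem176a, a membrane protein, measured 15.7, 21.8 and 29.4 at 0.01 µM, against 6.55, 11.7 and 8.66 in naive cells, with 52.5 in P13.9 (log2 change 1.21 ± 0.37, adjusted p = 0.0136). The P13.9 means of the others were 18.4 for Cxcl2, 107 for Ccnd1, 209 for S100a4, 0.659 for Marcks, 63.8 for Cd44 and 12.2 for Cmtm7. The P13.9 share of the libraries was higher at 0.01 µM than at each of the other doses, and its part in these differences was not tested.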

How the results depend on the processing

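Against naive cells 3588 genes were called. The count was 5504 without a filter on low values, 844 for genes with a mean of at least 20, 2209 in the fit of the 6 libraries alone, and 2774 to 3487 with 1 library left out. Genes called higher, 1578, became 2803, 436 and 600 under the same settings, 2431 with equal totals and 1106 to 1831 with 1 library left out. Genes called lower, 2010, became 408 at a mean of at least 20 and 1182 to 1770 with 1 library left out. Against P13.9 2056 genes became 3538 with edgeR, 613 at a mean of at least 20 and 1283 to 2816 with 1 library left out. Against the other doses 803 became 2777, 374 and 239 to 857. Genes above both naive cells and P13.9, 221, became 652, 108 and 141 to 390. The P13.9 share at 0.01 µM was 37.2% by the fibroblast list and 23.7% by genes without a naive read. The equal-totals scaling and the alternatives for genes called in 1 direction or above both were chosen after seeing the data.

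Of 211 named genes called against naive cells, 147 kept direction and call in every alternative in which they were tested. With any naive library left out, only 184 of the 211 were tested. edgeR kept 191 of the 211, DESeq2 184 and quantile normalization 191. After subtraction of the fibroblast-list share these log2 changes turned: Gsto1 -3.12, Lgals3 -3.83, Sparc -2.71, Ctsb -2.44, H2-DMb1 -2.32, Cavin1 -1.22, Tmem176a -1.05, Rpl39l -1.05, Npm1 -1.01, Rhoc -0.76, Fads1 -0.76, Nop10 -0.72 and Ctsz -0.47. With the share by genes without a naive read, Gsto1 was -1.12 and Ctsb -1.84. Hsp90ab1 turned to 0.22 after quantile normalization. With 1 library left out Lef1 ranged from -1.24 (naive 1 out) to 1.25 and Ighm from -1.21 (naive 3 out) to 1.09. By construction, the subtractions lower a gene whose P13.9 mean lies above its 0.01 µM value and raise one whose P13.9 mean lies below it. Cd44, for example, went to 1.31 with the fibroblast-list share. For the other changes the cause was not tested. No paired analysis was possible because the naive columns carry numbers and no letters that match the 0.01 µM replicates. Depth limits the naive side, where 1 read in the shallowest library is worth 6.55.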

Other observations

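A further 5 named genes were called lower at 0.01 µM. Rasgrp2, an activator of the GTPase Rap1 in lymphocytes, measured 0.837, 0 and 0.337 at 0.01 µM, against 19.7, 78.1 and 36.8 in naive cells, with 0.256 in P13.9 (log2 change -4.87 ± 0.50, adjusted p = 1.16e-06). Fyn, a Src family kinase, measured 6.20, 7.42 and 3.71 at 0.01 µM, against 26.2, 54.7 and 49.8 in naive cells, with 2.43 in P13.9 (log2 change -2.69 ± 0.38, adjusted p = 3.12e-05). Ptpn22, a phosphatase that restrains receptor signals, measured 7.70, 9.74 and 11.1 at 0.01 µM, against 45.9, 39.0 and 36.8 in naive cells, with 3.68 in P13.9 (log2 change -1.99 ± 0.29, adjusted p = 4.25e-05). The groups did not overlap in any of the 3 genes, which for Rasgrp2 was a condition of choice. Cd83, a surface protein of activated lymphocytes, measured 1.84, 2.78 and 4.72 at 0.01 µM, against 26.2, 19.5 and 12.99 in naive cells, with 0 in P13.9 (log2 change -2.33 ± 0.37, adjusted p = 0.000104). Ramp3, a receptor partner protein, measured 1.00, 0.927 and 0.337 at 0.01 µM, against 45.9, 54.7 and 65.0 in naive cells, with no read in P13.9 (log2 change -5.01 ± 0.40, adjusted p = 8.68e-08). All 5 kept their call in every alternative in which they were tested, but Cd83 and Ramp3 missed the filter once a naive library was left out. Id2 and Id3, inhibitors of E proteins, did not pass the limma test. Id2 measured 111, 139 and 105 at 0.01 µM, against 209.7, 168 and 136 in naive cells, with 8.64 in P13.9 (log2 change -0.52 ± 0.22, adjusted p = 0.0603), and was called lower without naive 3 (-0.67, adjusted p = 0.0302). Id3 measured 2.01, 1.85 and 1.69 at 0.01 µM, against 0, 35.1 and 21.7 in naive cells, with 0.550 in P13.9 (log2 change -1.72 ± 0.91, adjusted p = 0.129). It was called lower in 6 alternatives, among them edgeR (-2.83, adjusted p = 6.61e-05), DESeq2 (-2.99, adjusted p = 1.18e-07) and the fit without naive 1, which held no read of it (-3.33, adjusted p = 2.53e-06). The early growth response gene Egr2 was below the filter, at 4.69, 3.94 and 2.36 at 0.01 µM, against 0, 15.6 and 4.33 in naive cells, with 2.50 in P13.9.

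Lgals1, Anxa2 and S100a10 were called higher at 0.01 µM. Lgals1, the gene of galectin-1, measured 194, 225 and 324 at 0.01 µM, against 131, 43.0 and 12.99 in naive cells, with 142 in P13.9 (log2 change 2.48 ± 0.53, adjusted p = 0.00119), and the 0.01 µM libraries were also above the P13.9 mean. Anxa2, a membrane-binding annexin, measured 80.2, 90.7 and 92.1 at 0.01 µM, against 26.2, 39.0 and 17.3 in naive cells, with 109 in P13.9 (log2 change 1.71 ± 0.22, adjusted p = 1.51e-05). Its partner S100a10 measured 88.1, 96.0 and 140.0 at 0.01 µM, against 39.3, 31.2 and 41.1 in naive cells, with 97.2 in P13.9 (log2 change 1.49 ± 0.23, adjusted p = 7.92e-05). No naive library reached the 0.01 µM range for these 3 genes. Hbb-bt, a globin gene of red cells, measured 0.168, 0 and 0 at 0.01 µM, against 19.7, 11.7 and 8.66 in naive cells, with no read in P13.9, from 1 read at 0.01 µM and 10 in naive cells, a ratio of 0.00657, with exact bounds of 0.000151 and 0.0462 (adjusted p = 5.02e-09). The filter required its presence in every naive library.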
